A study of Mus musculus with 6 samples.

Results

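Collagens are the triple-helical proteins of the extracellular matrix, and the chains described here are all those with a numbered collagen symbol in a bulk RNA-seq table of the embryonic mouse midface. Members were the rows whose symbol has the form of Col, a type number, the letter a and a chain number, and whose 6 library counts summed above 0. There were 43 such chains among 55401 genes in the table. One further matching symbol, Col6a5, was listed at 0 in every library. The chains were sorted into 11 fibrillar chains, 8 basement membrane chains, 9 FACIT chains (fibril-associated collagens with interrupted triple helices) and 15 others. Of the 43, 40 had enough counts to be tested, and Col4a3, Col19a1 and Col10a1 did not.

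RNA came from microdissected frontonasal and maxillary prominences, the facial swellings that form the nose, midface and upper jaw, of 3 control and 3 mutant mouse embryos at E10.5. The mutants, Tfap2Δ/NCKO, carried 1 null and 1 floxed allele of Tfap2a, the same of Tfap2b, and the Wnt1:CRE transgene, which acts in pre-migratory neural crest cells. These 2 genes encode AP-2 transcription factors. In the mutants they were thus deleted in the neural crest lineage and present at a reduced dose elsewhere in the embryo. Controls lacked CRE and could carry alleles of Tfap2a and Tfap2b in any combination, and the mice were of mixed background. Every mutant and no control carried the transgene, so its own effects and those of AP-2 loss cannot be told apart. The comparison asks which genes differ when AP-2 activity is lost from the midfacial neural crest.

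A collagen molecule is made of 3 chains, either copies of one chain or products of different genes. Chains are hydroxylated and folded in the endoplasmic reticulum, secreted, trimmed by proteases and crosslinked outside the cell. Fibrillar collagens build the banded fibrils of connective tissue and cartilage, and FACIT collagens sit on the surface of those fibrils. Type IV chains form the network of basement membranes, the sheets that separate epithelia, vessels and nerves from mesenchyme. In the embryonic face the cranial neural crest gives rise to most of the mesenchyme that later forms cartilage, bone and dermis.

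Library totals ran from 68119668 to 77555252 counts. Levels are given in CPM (counts scaled to a common depth by the TMM-adjusted library size), with 3 counts equal to between 0.0384 and 0.0444 CPM. Over the whole gene, Tfap2a lay at 30.4, 33.1 and 35.1 CPM in controls 1, 2 and 3 against 31.5, 28.6 and 28.6 CPM in mutants 1, 2 and 3. Tfap2b lay at 90.1, 88.7 and 97.2 CPM in the controls against 84.1, 75.6 and 77.7 CPM in the mutants. Gene-level counts do not separate the deleted exons from the others, and in dissected tissue they include cells outside the neural crest, so these values do not check the labels. Wnt1, after which the CRE transgene is named, lay at 0.134, 0.206 and 0.238 CPM in controls against 2.47, 1.30 and 2.01 CPM in mutants. The origin of the Wnt1 counts was not tested. The Y-linked gene Ddx3y was at 40.5 to 45.8 CPM in control 2 and all mutants and at most 0.0534 CPM in controls 1 and 3, where alone Xist was high (666 and 700 CPM), so sex and genotype were partly confounded. Because this was bulk tissue, fewer cells of a type and less RNA per cell cannot be told apart in any result below.

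The cell make-up of the dissections was examined with marker lists. Of the 11 midfacial crest mesenchyme markers, 11 were lower in the mutants by fitted log2 fold change, with a summed level of 1250 to 1279 CPM in controls and 965 to 1016 CPM in mutants. Alx1, Alx4 and Pax3 (3 of 11) passed the test as lower, against 0.219% of all genes. All 10 macrophage markers had fitted log2 fold changes above 0, with sums of 27.3 to 37.6 CPM in controls and 49.6 to 71.2 CPM in mutants. C1qb (1 of 10) passed the test as higher, against 0.107% of all genes. Of the 9 cranial muscle markers tested, 8 were higher, with sums of 31.5 to 42.4 and 46.0 to 52.3 CPM. The 10 endothelial markers summed to 297 to 310 CPM in controls and 326 to 350 CPM in mutants. Early skeletal markers summed to 120 to 132 and 103 to 111 CPM, with Matn1 at 0 in every library. That sum was mostly Sox9 (a mean of 86.4 CPM in controls and 75.0 in mutants) and Hapln1 (36.2 and 24.1), singled out after their values were seen. Of the 8 markers tested on this list, 4 were higher and 2 lower at an unadjusted p below 0.05 in edgeR's test, against 4.3% and 3.65% of all genes. The median log2 fold change of the list was 0.38. At the same limit 9 of 11 crest mesenchyme markers were lower, while 10 of 10 macrophage and 4 of 10 endothelial markers were higher. Of 9 cranial muscle markers 5 were higher and 1 lower, of 10 neural markers 1 and 1, and of 10 erythroid markers 0 differed. Sums overlapped between genotypes for pericyte markers (305 to 347 and 299 to 347 CPM), for neural markers (954 to 1056 and 946 to 1101 CPM) and for erythroid markers (2088 to 4727 and 2532 to 3744 CPM). The pericyte sum was mostly Notch3 and Pdgfrb. By fitted log2 fold change 6 of the 10 markers on that list were above 0 and 4 below, with Rgs5 the lowest at -0.80. At an unadjusted p below 0.05 in edgeR's test, 3 (30%), Acta2, Tagln and Myh11, were higher and 0 lower, against 4.3% and 3.65% of all genes. Acta2 lay at 2.43 to 5.41 CPM in controls and 6.79 to 9.75 CPM in mutants, and Myh11 was at 0 in every control and at 0.218 to 0.373 CPM in mutants. The part of these shifts in the collagen values below was not tested.

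The proximal promoters of the chains on which the results turn are shown first, because the deleted genes encode factors that bind GC-rich sites. The sequences are RefSeq's, from build GRCm38.p6, and hold the 250 bases before the start annotated there, 5′ to 3′ along the gene. By the GENCODE gene intervals given below, the Col1a2 stretch lies within the gene and the Col6a1 stretch partly within it. Capitals mark GCCNNNGGC or GCCNNNGGG on either strand, which are core sequences of the AP-2 binding site. The fibrillar chains Col1a2 and Col3a1 differed in opposite directions, Col8a2 had the most negative fold change and Col6a1 the most positive.
Col1a2 (chr6:4505368-4505617, plus strand): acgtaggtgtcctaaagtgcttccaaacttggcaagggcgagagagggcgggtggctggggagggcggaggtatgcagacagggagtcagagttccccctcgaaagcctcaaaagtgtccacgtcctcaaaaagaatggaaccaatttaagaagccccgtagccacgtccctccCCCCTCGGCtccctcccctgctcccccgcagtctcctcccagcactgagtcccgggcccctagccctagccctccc
Col3a1 (chr1:45311288-45311537, plus strand): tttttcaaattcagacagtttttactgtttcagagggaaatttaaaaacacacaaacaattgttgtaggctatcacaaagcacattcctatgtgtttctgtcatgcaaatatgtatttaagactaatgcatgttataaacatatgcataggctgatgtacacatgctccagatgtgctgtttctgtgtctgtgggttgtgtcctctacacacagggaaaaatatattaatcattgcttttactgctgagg
Col8a2 (chr4:126286544-126286793, plus strand): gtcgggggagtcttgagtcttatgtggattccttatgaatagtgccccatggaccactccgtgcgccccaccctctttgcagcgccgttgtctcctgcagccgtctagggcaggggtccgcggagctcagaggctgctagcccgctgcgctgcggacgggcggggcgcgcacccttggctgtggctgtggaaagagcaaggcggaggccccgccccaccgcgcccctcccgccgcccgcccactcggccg
Col6a1 (chr10:76726045-76726294, minus strand): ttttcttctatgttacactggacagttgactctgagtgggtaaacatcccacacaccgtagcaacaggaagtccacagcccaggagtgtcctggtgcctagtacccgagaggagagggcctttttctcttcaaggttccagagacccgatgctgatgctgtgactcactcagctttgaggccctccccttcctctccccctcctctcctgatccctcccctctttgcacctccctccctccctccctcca
Among these 4 stretches, Col1a2 held 1 match and the other 3 chains held none. Over windows from 250 bases before to 50 bases after the start, GCCNNNGGC was in 8 of 37 collagen promoters (21.6%) and in 16.6% of all 32851 promoters. GCCNNNGGG, which can share bases with it, was in 15 of 37 (40.5%) and in 27% of all promoters. A CCAAT box was in 35.1% of collagen promoters against 37.4% of all, and TATAAA in 13.5% against 13.6%. These windows covered 34 of the 43 chains. At least 1 of the AP-2 core sequences was in 3 of the 13 covered chains with an unadjusted p below 0.05 and in 14 of the 21 other covered chains. A match is a description of the letters only.

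The sum of collagen transcripts did not separate the genotypes, and a few chains supplied most of them. The summed level of all 43 chains was 2817, 3168 and 3247 CPM in controls 1, 2 and 3 and 2725, 3247 and 3363 CPM in mutants 1, 2 and 3. The means were 0.308% and 0.311% of the library, and the ranges overlapped. The 5 highest chains held 62.1% of the summed CPM and the 10 highest held 86.1%. Averaged over all libraries, 8 chains were at or above 100 CPM, 23 at or above 10 CPM, 35 at or above 1 CPM and 8 below 1 CPM. Per kb of exon, the highest levels were those of Col4a1 (54.9 CPM per kb), Col3a1 (50.2), Col2a1 (48.7), Col18a1 (45.1) and Col4a2 (36.7). Of these chains, Col4a1, Col4a2 and Col18a1 belong to basement membranes, Col2a1 to cartilage and Col3a1 to soft connective tissue. Col10a1, the chain of hypertrophic cartilage, was at 0 counts in 3 libraries and at most 0.134 CPM in the others.

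**Figure D1:**
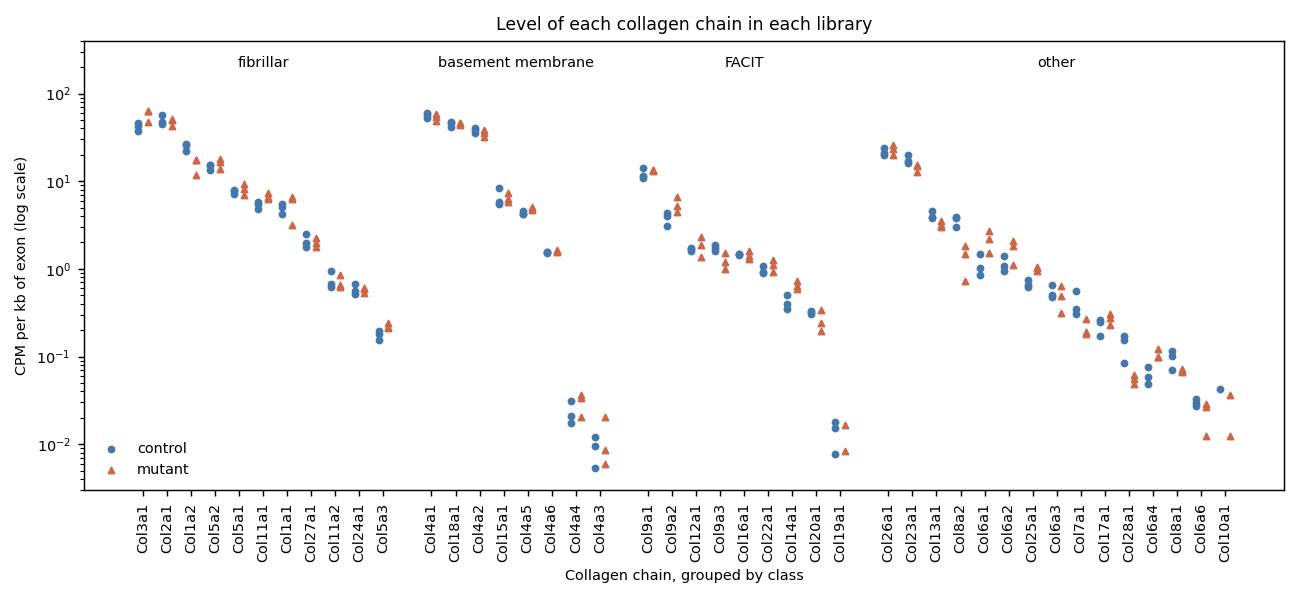
The level of each of the 43 collagen chains in every library, in CPM per kb of exon on a log axis, with chains grouped by class and ordered by mean level; circles are the 3 controls, triangles the 3 mutants, and values of 0 are not drawn. Col4a1 had the highest mean at 54.9 CPM per kb, and 8 chains averaged below 1 CPM.

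No collagen chain passed the test of genotype with edgeR's quasi-likelihood test, yet groups that did not overlap were more frequent among chains than among all genes. Calls needed an adjusted p below 0.05 together with an absolute log2 fold change above 0.32. By this rule 0 of 40 chains were called, against 64 of 19612 genes (0.326%). At an unadjusted p below 0.05 there were 15 of 40 chains (37.5%), against 7.95% of all genes. Of these, 8 were higher and 7 lower in mutants, against 4.3% and 3.65% of all genes. For 16 of 40 chains (40%), 9 higher and 7 lower, the 3 mutant values did not overlap the 3 control values, which held for 13.4% of all genes (7.15% higher and 6.24% lower). The median log2 fold change was 0.03 over the chains and 0.00 over all genes, with 21 chains above 0 and 19 below. By class, the median was 0.10 for fibrillar, 0.02 for basement membrane, 0.14 for FACIT and -0.25 for the other chains. Unadjusted p below 0.05 was reached by 3 of 11 fibrillar, 1 of 7 basement membrane, 3 of 8 FACIT and 8 of 14 other chains tested. All chains were measured in the same libraries, so these counts are not of 40 separate results. With the Y-linked covariate described below, the 15 chains became 7.

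The number of calls depended on the fit. With the replicate number from the labels as a block, edgeR's quasi-likelihood test called 6 of 40 chains, 4 higher and 2 lower, against 0.607% of all genes (0.209% higher and 0.398% lower). These were Col3a1, Col6a1, Col25a1 and Col9a2, which rose, and Col1a2 and Col7a1, which fell. DESeq2's Wald test called 7 chains against 1.44% of all genes, Col25a1, Col3a1, Col6a1, Col14a1, Col8a2, Col1a2 and Col7a1. With the level of Y-linked genes as a covariate, 0 chains were called against 0.184% of all genes. In that fit 7 of 40 chains had an unadjusted p below 0.05 in edgeR's test, against 15 of 40 without the covariate. The share of all genes at that limit was not counted for the covariate fit. Because control 2 was the only control that expressed Y-linked genes, the genotype term of that fit rests almost wholly on the mutants against control 2. Fold changes given below for this covariate carry that limit and are not sex-adjusted estimates from all controls.

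**Figure D2:**
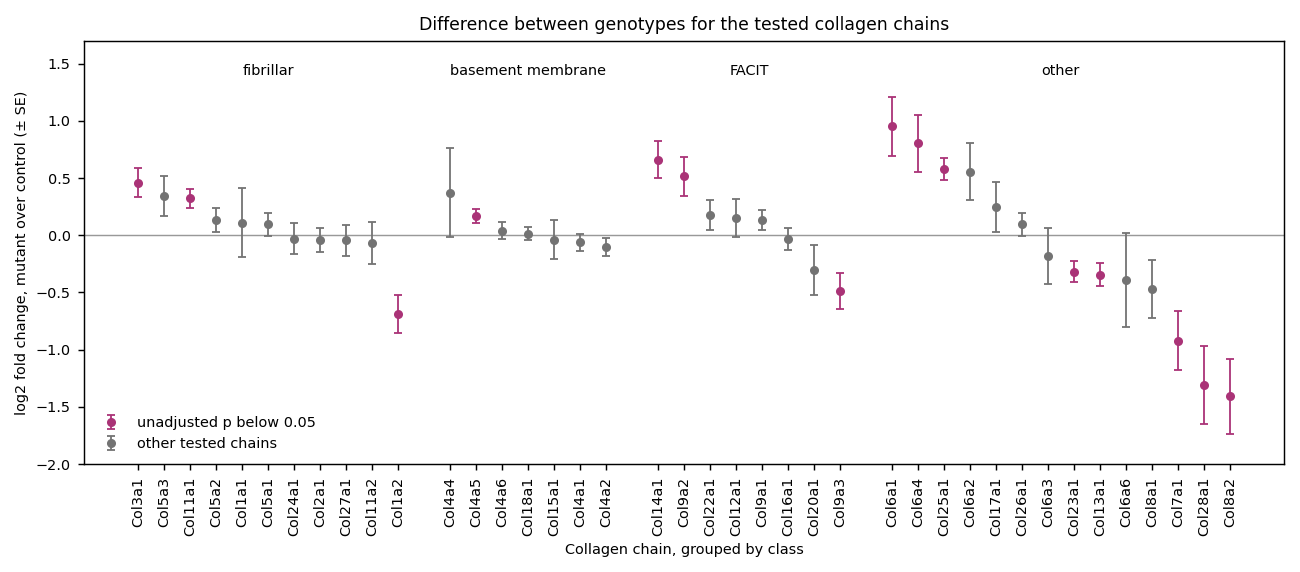
Log2 fold change of mutant over control with its SE (edgeR, n = 3 libraries a group) for the 40 tested chains, grouped by class and ordered within it; purple points have an unadjusted p below 0.05, which held for 15 chains. Fitted values ran from -1.41 (Col8a2) to 0.95 (Col6a1).

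The fibrillar chains of soft connective tissue differed in opposite directions. Col3a1 (ENSMUSG00000026043.18, chr1:45311538-45349706 in mm10), the single chain of type III collagen of vessels and loose connective tissue, lay at 368, 456 and 422 CPM in controls 1, 2 and 3 against 467, 623 and 623 CPM in mutants 1, 2 and 3. Every mutant lay above every control, with mutant 1 nearest to them. Its log2 fold change was 0.46 (SE 0.13, edgeR adjusted p = 0.305), and with the replicate block 0.45 (SE 0.05, adjusted p = 0.0180). The Y-linked covariate gave 0.33 (SE 0.18), without a call. Col3a1 shares 141 exon bases with Gm47302 on its strand. Col1a2 (ENSMUSG00000029661.16, chr6:4504814-4541544), the alpha 2 chain of type I collagen of skin and bone, lay at 278, 322 and 331 CPM in controls against 144, 215 and 218 CPM in mutants. All mutants lay below all controls, and mutant 1 was the lowest. The log2 fold change was -0.69 (SE 0.17, edgeR adjusted p = 0.262), and with the replicate block -0.71 (SE 0.08, adjusted p = 0.0335). The Y-linked covariate gave -0.74 (SE 0.25), without a call.

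Col1a1, which encodes the alpha 1 chain that joins Col1a2 in type I collagen, did not show the same difference. It lay at 27.6, 36.3 and 33.4 CPM in controls against 20.7, 41.5 and 42.9 CPM in mutants, so that mutant 1 lay below and mutants 2 and 3 above all controls. Its log2 fold change was 0.11 (SE 0.30, edgeR adjusted p = 0.977). Per kb of exon Col1a2 was the more abundant of the pair, at 20.2 against 5.14 CPM per kb over all libraries. Within a library the ratio of Col1a1 to Col1a2 counts was 0.104 ± 0.0074 (SD, n = 3) in controls and 0.178 ± 0.0299 in mutants. The ratio of Col1a2 to Col3a1 was 0.749 ± 0.0388 in controls and 0.335 ± 0.0221 in mutants. Neither set of ratios overlapped between genotypes. For Col1a2 to Col3a1 this had to follow, since Col1a2 was lower and Col3a1 higher in every mutant, so it adds no support. The ratios are descriptions and were not tested.

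Of the cartilage fibril chains, Col2a1, the main collagen of cartilage, lay at 417, 434 and 521 CPM in controls against 392, 465 and 475 CPM in mutants, with overlapping groups and a log2 fold change of -0.04 (SE 0.10, edgeR adjusted p = 0.972). Col11a1, a chain of type XI collagen that copolymerises with type II, lay at 61.2, 74.6 and 70.8 CPM in controls against 80.8, 84.8 and 92.6 CPM in mutants. These groups did not overlap. The fit gave a log2 fold change of 0.32 (SE 0.08, edgeR adjusted p = 0.210), just under the fold limit for a call. The Y-linked covariate gave 0.21 (SE 0.11). The minor fibrillar chain Col5a3 was also higher without overlap, at 1.06 to 1.35 CPM in controls and 1.45 to 1.66 CPM in mutants, with an unadjusted p of 0.0827 in the edgeR test. The other fibrillar chains overlapped between genotypes. They were Col5a2 (129 to 149 and 131 to 173 CPM) and Col5a1 (61.0 to 67.5 and 58.6 to 79.5 CPM), the chains of type V collagen, which starts fibrils, and Col27a1, Col11a2 and Col24a1, with absolute log2 fold changes of 0.07 or less.

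The basement membrane chains differed little between genotypes. Col4a1 and Col4a2, the chains of the common type IV network, start on opposite strands of chromosome 8 with starts 21 bases apart, so that 22 exon bases overlap. Col4a1 lay at 387, 422 and 447 CPM in controls against 365, 400 and 438 CPM in mutants, with a log2 fold change of -0.06 (SE 0.08, edgeR adjusted p = 0.934). Col4a2 lay at 234, 252 and 270 CPM in controls against 211, 238 and 254 CPM in mutants, with a log2 fold change of -0.11 (SE 0.08, edgeR adjusted p = 0.862). Both overlapped between genotypes, and both were lowest in replicate 1 and highest in replicate 3 of each group. The ratio of Col4a1 to Col4a2 counts was 1.66 ± 0.0107 (SD, n = 3) in controls and 1.71 ± 0.0234 in mutants.

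Col18a1, a heparan sulfate proteoglycan collagen of basement membranes, lay at 294, 320 and 332 CPM in controls against 311, 321 and 324 CPM in mutants, with a log2 fold change of 0.02 (SE 0.05, edgeR adjusted p = 0.982). Col15a1, its relative, overlapped at 35.3 to 53.1 and 36.4 to 46.0 CPM. The X-linked pair Col4a5 and Col4a6 starts 1343 bases apart. Col4a5 lay at 28.3, 30.4 and 28.7 CPM in controls against 31.3, 33.4 and 33.7 CPM in mutants, without overlap, with a log2 fold change of 0.17 (SE 0.06, edgeR adjusted p = 0.467). With the Y-linked covariate its log2 fold change was 0.11 (SE 0.09, adjusted p = 0.999). Col4a6 lay at 12.5, 12.2 and 12.4 CPM in controls against 12.4, 12.8 and 13.0 CPM in mutants, with a log2 fold change of 0.04 (SE 0.07, edgeR adjusted p = 0.962). The kidney and lung pair was scarce. Col4a4 lay at 0.187, 0.220 and 0.331 CPM in controls against 0.359, 0.385 and 0.218 CPM in mutants (log2 fold change 0.37, SE 0.39, edgeR adjusted p = 0.918), and Col4a3 at 0.0529 to 0.120 and 0.0592 to 0.205 CPM.

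Among the FACIT chains, the 3 chains of type IX collagen, which coats type II fibrils in cartilage, did not move together. Col9a1 lay at 55.5, 71.2 and 58.2 CPM in controls against 66.0, 68.7 and 67.9 CPM in mutants, within the control range, and the fitted log2 fold change was 0.13 (SE 0.09, edgeR adjusted p = 0.844). Col9a2 lay at 9.43, 12.4 and 13.5 CPM in controls against 13.7, 16.3 and 20.4 CPM in mutants, all mutants above all controls. The fitted log2 fold change was 0.51 (SE 0.17, edgeR adjusted p = 0.448), and with the replicate block 0.51 (SE 0.07, adjusted p = 0.0431). DESeq2 without the block did not call Col9a2 (adjusted p = 0.104). The Y-linked covariate gave 0.44 (SE 0.27), also without a call. Col9a3 was lower in every mutant, at 6.21, 6.70 and 7.20 CPM in controls against 3.89, 4.56 and 5.91 CPM in mutants. The fit gave a log2 fold change of -0.48 (SE 0.16, edgeR adjusted p = 0.385). Within a library, the ratio of Col9a2 to Col9a3 counts was 1.75 ± 0.198 (SD, n = 3) in controls and 3.52 ± 0.0615 in mutants. That difference follows from the opposite directions of the 2 chains and adds no support. Col9a3 shares 234 exon bases with Tcfl5 on the opposite strand, and no strand setting for the counting is stated.

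Col14a1, which binds type I fibrils in soft tissue, was higher in every mutant, at 2.76, 2.42 and 3.49 CPM in controls against 5.07, 4.48 and 4.18 CPM in mutants. The log2 fold change was 0.66 (SE 0.16, edgeR adjusted p = 0.190, DESeq2 adjusted p = 0.0348), and it was 0.92 (SE 0.22) with the Y-linked covariate. With the replicate block Col14a1 was not called, at an adjusted p of 0.168 in edgeR's test and 0.126 in DESeq2's. Col12a1, a close relative of Col14a1, lay at 26.2, 24.3 and 25.6 CPM in controls against 28.3, 21.0 and 35.2 CPM in mutants, so that mutants lay on both sides of the controls. The fitted log2 fold change was 0.15 (SE 0.17, edgeR adjusted p = 0.924). Col16a1, Col22a1 and Col20a1 overlapped between genotypes at mean levels of 1 to 11 CPM. Col19a1 was at 0.0534 to 0.124 CPM in controls against 0 to 0.115 CPM in mutants, and the 0 in mutant 2 allowed up to 0.0444 CPM.

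**Figure D3:**
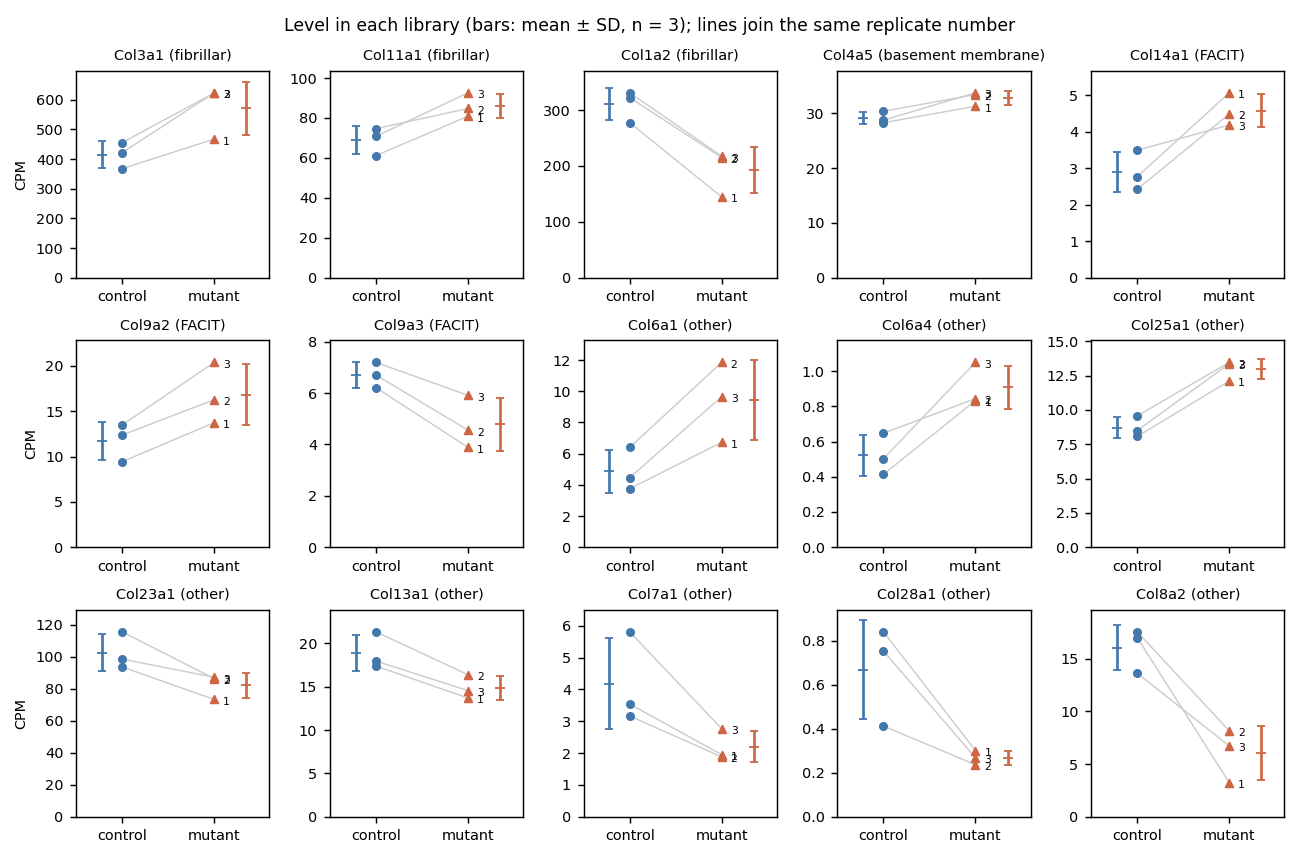
CPM in each library for the 15 chains with an unadjusted p below 0.05; circles are controls, triangles mutants, grey lines join libraries with the same replicate number (given beside each triangle), and bars are mean ± SD (n = 3). In all 15 panels the mutant values lie on 1 side of the control values, as for Col25a1 at 8.07 to 9.56 CPM in controls and 12.1 to 13.5 CPM in mutants.

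The lowest fitted fold change was that of Col8a2 and the highest that of Col6a1. Col8a2, a short chain of type VIII collagen, the hexagonal network under the corneal endothelium, was lower in every mutant, at 17.0, 17.5 and 13.6 CPM in controls against 3.24, 8.15 and 6.72 CPM in mutants. Mutant 1 was far below the others. The log2 fold change was -1.41 (SE 0.33, edgeR adjusted p = 0.246; DESeq2 adjusted p = 0.0230), a mean 2.66-fold lower. Without mutant 1 it was -1.11 (SE 0.15, edgeR adjusted p = 0.0388), which was a call. Leaving out any other library gave no call, with adjusted p of 0.251 to 0.554 in edgeR's test. The replicate block gave Col8a2 a log2 fold change of -1.48 (SE 0.34, edgeR adjusted p = 0.300), which was not a call. Its partner Col8a1 lay at 0.556 to 0.895 CPM in controls and 0.518 to 0.560 CPM in mutants.

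Type VI collagen forms beaded microfibrils around cells from an alpha 1, an alpha 2 and a larger chain. Col6a1 (ENSMUSG00000001119.7, chr10:76708792-76726168) lay at 3.75, 6.40 and 4.46 CPM in controls against 6.73, 11.9 and 9.66 CPM in mutants, all mutants above all controls, although mutant 1 exceeded control 2 only slightly. Its log2 fold change was 0.95 (SE 0.26, edgeR adjusted p = 0.285), and with the replicate block 0.95 (SE 0.10, adjusted p = 0.0180). With the Y-linked covariate it was 0.56 (SE 0.30, adjusted p = 0.916). Col6a2 lay at 7.77, 11.7 and 8.89 CPM in controls against 9.23, 17.4 and 15.0 CPM in mutants, with overlap at replicate 1 of the mutants, and a log2 fold change of 0.56 (SE 0.25, edgeR adjusted p = 0.683). Only DESeq2 with the replicate block called it, at an adjusted p of 0.0124. Of the larger chains, Col6a3 overlapped at 5.74 to 7.76 and 3.76 to 7.59 CPM with a log2 fold change of -0.18.

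Col6a4 was higher in every mutant, at 0.414, 0.647 and 0.503 CPM in controls against 0.832, 0.844 and 1.05 CPM in mutants, with a log2 fold change of 0.80 (SE 0.25, edgeR adjusted p = 0.351) that was 0.49 (SE 0.34) with the Y-linked covariate. Col6a6 stayed below 0.31 CPM in every library. The ratio of Col6a1 to Col6a2 counts was 0.511 ± 0.0341 (SD, n = 3) in controls and 0.685 ± 0.0437 in mutants. That of Col6a2 to Col6a3 was 1.44 ± 0.0788 in controls and 2.47 ± 0.490 in mutants.

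**Figure D4:**
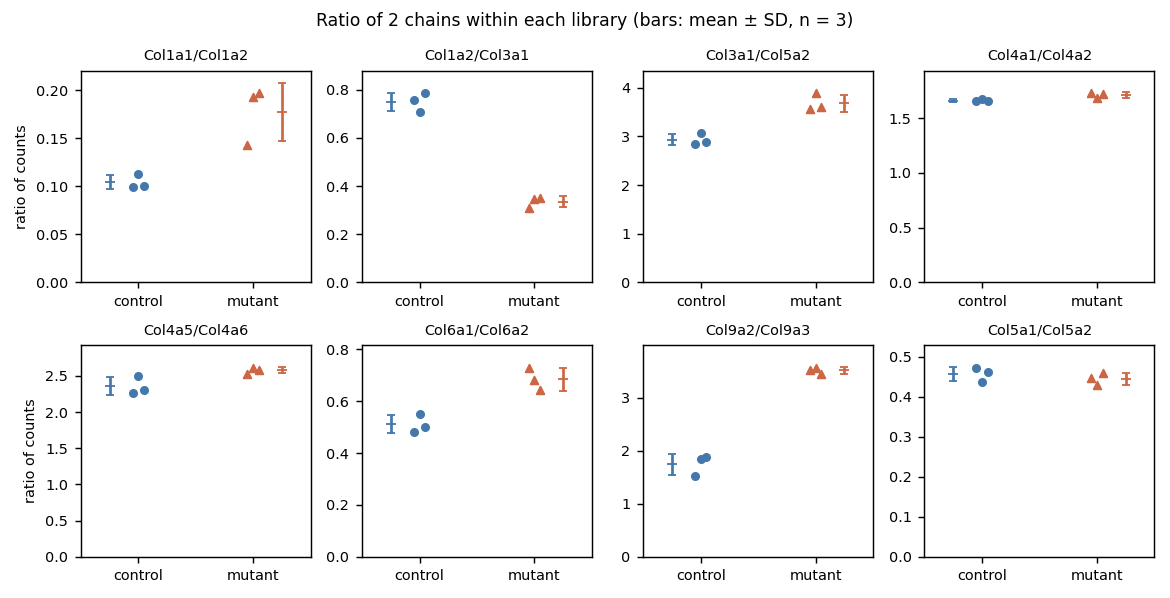
Ratio of the counts of 2 chains within each library, for 8 pairs of chains; circles are controls, triangles mutants, and bars are mean ± SD (n = 3). The Col1a2 to Col3a1 ratio is 0.749 in controls and 0.335 in mutants, while the Col5a1 to Col5a2 ratio is 0.457 and 0.445.

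Col7a1, the chain of the anchoring fibrils that tie the epidermal basement membrane to the dermis, was lower in every mutant. It lay at 3.54, 3.17 and 5.81 CPM in controls against 1.95, 1.88 and 2.76 CPM in mutants, with control 3 far above the other controls. The log2 fold change was -0.92 (SE 0.26, edgeR adjusted p = 0.282), with the replicate block -0.90 (SE 0.13, adjusted p = 0.0473), and with the Y-linked covariate -0.52 (SE 0.32, adjusted p = 0.964). Without control 3 it was -0.61. Col7a1 shares 36 exon bases with Mir711 on its strand. Markers of surface ectoderm summed to 294 to 305 CPM in controls and 308 to 369 CPM in mutants. By fitted log2 fold change 6 of the 10 were above 0 and 4 (Krt5, Krt14, Trp63 and Grhl3) below 0. All but Cdh1, which was higher, overlapped between genotypes. At an unadjusted p below 0.05 in edgeR's test 5 (50%) were higher and 0 lower, against 4.3% and 3.65% of all genes. The part of these markers in the Col7a1 result was not tested. Col17a1, the transmembrane collagen of hemidesmosomes that attach epithelium to its basement membrane, overlapped at 1.02 to 1.59 and 1.36 to 1.84 CPM. Col28a1 was lower in every mutant at low levels, with 0.841, 0.413 and 0.754 CPM in controls and 0.301, 0.237 and 0.269 CPM in mutants. The log2 fold change of Col28a1 was -1.31 (SE 0.34, edgeR adjusted p = 0.224), and -0.61 (SE 0.39) with the Y-linked covariate.

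The membrane-spanning chains differed in both directions. Col25a1 (ENSMUSG00000058897.18, chr3:130131501-130599877), a muscle collagen that motor axons need to innervate muscle in mice, lay at 8.07, 9.56 and 8.49 CPM in controls against 12.1, 13.5 and 13.4 CPM in mutants. The groups were well apart and each was tight. Its log2 fold change was 0.58 (SE 0.10), and its edgeR adjusted p of 0.0555 was the lowest of all chains. The replicate block gave an adjusted p of 0.0358 in edgeR's test, the filter at 1 CPM in 3 libraries gave 0.0381 and DESeq2 gave 8.6e-05, all of them calls. With the Y-linked covariate the log2 fold change was 0.44 (SE 0.13, adjusted p = 0.451). The cranial muscle markers given above were also higher in all mutants in sum, and their part in the Col25a1 values was not tested.

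Col13a1, a collagen of the neuromuscular junction and of focal adhesions, was lower in every mutant, at 17.4, 21.3 and 17.9 CPM in controls against 13.7, 16.4 and 14.5 CPM in mutants. The log2 fold change of Col13a1 was -0.34 (SE 0.10, edgeR adjusted p = 0.317), and -0.52 (SE 0.12) with the Y-linked covariate. DESeq2 with the replicate block called it at an adjusted p of 0.0320. Col23a1, a related membrane collagen and one of the more abundant chains of the tissue, lay at 93.5, 115 and 98.4 CPM in controls against 73.3, 86.3 and 87.1 CPM in mutants. These groups did not overlap, and the log2 fold change was -0.32 (SE 0.09, edgeR adjusted p = 0.329), or -0.49 (SE 0.10) with the covariate. Col26a1 was the most abundant chain outside the 3 main classes, at 165, 194 and 171 CPM in controls against 162, 212 and 191 CPM in mutants, with overlap and a log2 fold change of 0.09 (SE 0.10, edgeR adjusted p = 0.921).

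**Figure D5:**
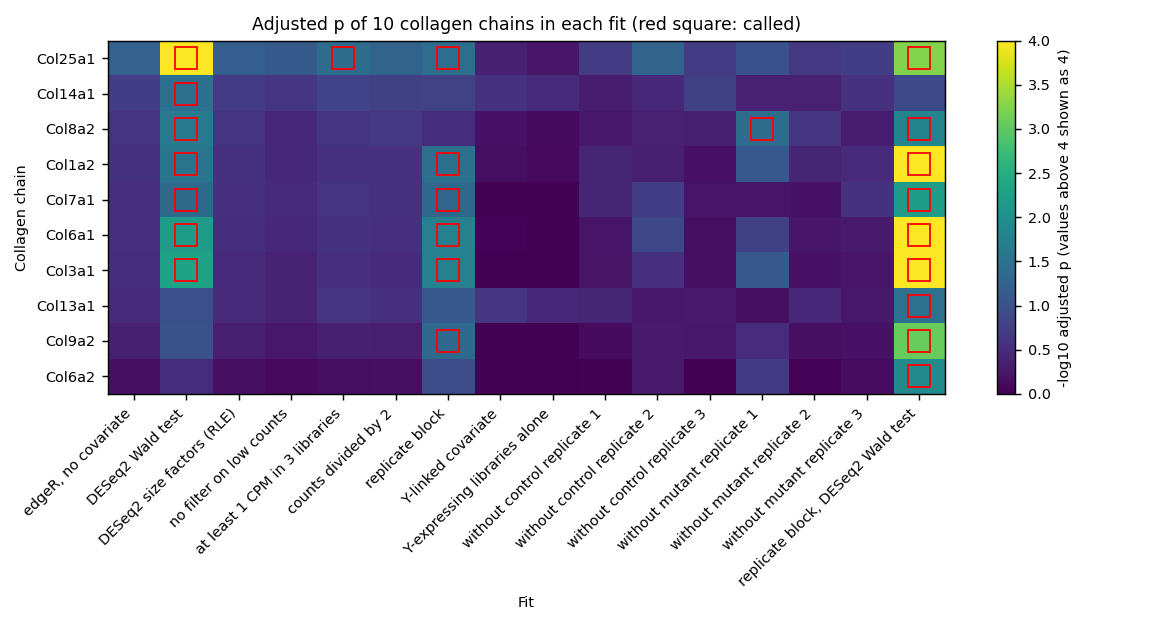
Adjusted p, as -log10, of the 10 collagen chains that were called in at least 1 fit; columns are the fits, brighter colours are lower adjusted p, and red squares mark calls (adjusted p below 0.05 and absolute log2 fold change above 0.32). Col25a1 is called in 4 of the fits, while the Y-linked covariate and the Y-expressing libraries alone call none.

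Collagen levels also varied between libraries of the same genotype. Mutant 1 was the lowest mutant library for 31 of the 40 tested chains and mutant 3 the highest for 27, and control 1 was the lowest control for 26. These ranks were not counted over all genes, so whether they are particular to collagens is not known. Between libraries with the same replicate number, 12 of the 40 tested chains (30.0%) were higher and 11 (27.5%) lower in the mutant in all 3 pairs, against 17.6% and 15.6% of all genes. Across the 40 chains the deviations of same-number libraries from their group means correlated at r = 0.464, 0.623 and 0.208 for numbers 1, 2 and 3. The 6 pairs of different numbers ran from -0.54 to 0.217, the highest being control 3 with mutant 1, so number 3 did not stand apart. These values describe chains that share libraries.

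The genes that modify, process or bind collagen were read from the same fit. Of 43 genes on these lists 0 were called by edgeR's quasi-likelihood test and 7 (16.3%) had an unadjusted p below 0.05, against 7.95% of all genes. Of these, 6 (14.0%) were higher and 1 (2.33%) lower, against 4.3% and 3.65% of all genes. For 5 genes (11.6%) the groups did not overlap, against 13.4% of all genes. Adamts2, the protease that removes the amino propeptide of fibrillar procollagens, was lower in every mutant. It lay at 1.82, 1.61 and 1.73 CPM in controls against 0.804, 0.725 and 1.05 CPM in mutants. The log2 fold change was -0.997 (SE 0.20, edgeR adjusted p = 0.104, DESeq2 adjusted p = 0.0191). With the replicate block Adamts2 was not called, at an adjusted p of 0.0868 in edgeR's test and 0.135 in DESeq2's. Adamts3, its relative with the same substrate class, lay at 12.8, 12.5 and 13.0 CPM in controls against 15.4, 15.5 and 14.3 CPM in mutants, without overlap, with a log2 fold change of 0.24 (SE 0.07, edgeR adjusted p = 0.331).

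The most abundant gene of each list was Serpinh1, Loxl2 or Itgb1. Serpinh1, the collagen chaperone HSP47, lay at 544, 660 and 632 CPM in controls against 630, 819 and 743 CPM in mutants. These overlapped, with a log2 fold change of 0.26 (SE 0.11, edgeR adjusted p = 0.599), which stayed under the fold limit in the blocked fit as well. Loxl2, a lysyl oxidase that crosslinks collagen, overlapped at 57.9 to 80.2 and 71.1 to 81.9 CPM. Itgb1, the shared beta chain of the collagen-binding integrins, lay at 240 to 271 and 273 to 286 CPM, with a log2 fold change of 0.15 (SE 0.06, edgeR adjusted p = 0.522).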

How the data were processed

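Frontonasal and maxillary prominences of 3 control and 3 mutant embryos were profiled from poly(A) libraries made with a stranded kit. The deposited values are whole estimated counts per gene. The authors mapped reads to mm10 with STAR and made the counts with StringTie and its prepDE script, which derives read numbers from coverage and a set read length. Not given in the sources used here are tool versions, the annotation release and that length. The authors' own comparison columns (DESeq2 and sleuth fold changes and p-values) were not used.

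Counts were tested in R 4.3.3 with edgeR 4.0.16 (filterByExpr, TMM, robust quasi-likelihood F test, all 6 libraries, no covariate), with Benjamini-Hochberg adjustment over 19612 genes. SE is the absolute log2 fold change divided by the square root of F. The paper describes the control and mutant embryos as littermates, without saying which embryos shared a litter. Nothing states that replicates came from separate litters, so p-values measure the spread between these libraries. Reads here carry no molecular identifiers and so are not independent molecules, and limits from counts cover counting error only.

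Alternatives were DESeq2 1.42.0, RLE scaling, no filter, a filter of 1 CPM in 3 libraries, counts divided by 2, the replicate number as a block, a Y-linked covariate, Y-expressing libraries alone and each library left out. Replicate numbers are from the titles. Deviations from group means of same-number libraries correlated at r = 0.107, 0.129 and 0.219 over all genes tested. Pairs of different numbers ran from -0.134 to -0.00965. The numbers were therefore read as pairing the libraries. No label states this pairing, and the choice was made from the same data that the block was fitted to.

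All 43 chains were found in GENCODE M21 (GRCm38). Lengths per kb are of merged exons. Named with values in every library were the 2 highest chains of each class, chains with an unadjusted p below 0.05 or a call in any fit, the 3 highest and 3 lowest fold changes at a mean of at least 1 CPM, the type IV pairs and Col1a1 with Col1a2. Pathway genes were named at a call or an unadjusted p below 0.01, with the highest of each list. The members and lists were chosen with earlier results of these data known.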

Additional observations from a re-analysis of the deposited data

How the results depend on the processing

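Counts of calls moved most between tests. Over the whole table, edgeR's quasi-likelihood test called 64 genes, against 282 with DESeq2, 119 with the replicate block, 36 with the Y-linked covariate, 33 with the Y-expressing libraries alone (1 control and 3 mutants, where the lone control is assumed to vary like the mutants) and 272 with DESeq2 and the replicate block together, a fit chosen after seeing the data. Leaving out 1 library gave 23 to 63, namely 41, 25, 23 and 26 when control 1, control 3, mutant 2 or mutant 3, respectively, was the one dropped. For the collagen chains the count was 0 with edgeR, 7 with DESeq2, 6 with the replicate block, 1 with the filter at 1 CPM, 9 with DESeq2 and the block, and 0 to 1 with 1 library left out, the 1 being Col8a2 without mutant 1. For the pathway genes it was 0 with edgeR and 1 with DESeq2. Directions turned for some chains and genes without a call. Under the Y-linked covariate and in the Y-expressing libraries alone, the log2 fold change was -0.0056 and -0.0218 for Col18a1, -0.0772 and -0.0910 for Col9a1, 0.0375 and 0.0186 for Col2a1, -0.0494 and -0.0693 for Col1a1, -0.0396 and -0.0557 for Col26a1, and -0.0692 and -0.0841 for Loxl2. With 1 library left out it ran from -0.13 to 0.00027 for Col4a1, -0.0405 to 0.0447 for Col18a1, -0.0417 to 0.32 for Col12a1, -0.11 to 0.0545 for Col2a1 and -0.0623 to 0.38 for Col1a1. Of the 40 tested chains, 9 turned under the Y-linked covariate, a fit whose genotype term rests almost wholly on the mutants against control 2. The 4 not yet given went from -0.04 to 0.21 (Col15a1), -0.05 to 0.19 (Col27a1), -0.07 to 0.21 (Col11a2) and -0.03 to 0.14 (Col24a1). The cause was not tested. Chains under 1 CPM have few counts, so differences there may not be detectable at this depth.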
